A study of Homo sapiens with 60 samples.

Results

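The genes described here are 7 targets of the peroxisome proliferator-activated receptors (PPARs) and enzymes of fatty acid oxidation: PDK4, FABP1, ANGPTL4, CPT1A, CPT2, ACADVL and HADHA. They were taken by symbol from a table of 60675 Ensembl genes, and each of the 7 symbols matched a single row. The choice did not use measured values in its rule, but it was made with earlier results of these data known. The study treated HT29 cells, a human colorectal adenocarcinoma line, for 24 h with extracts of digestive herbal medicines and sequenced their mRNA. There were 60 libraries in 25 groups, which were 8 extracts at 3 doses each and 1 vehicle group.

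Water extracts of the formulas Sayeok-tang (3 libraries per dose) and Bojungikgi-tang (2 per dose) were tested. So were ethanol extracts, with 3 libraries per dose, of 2 kinds of ginger, Zingiberis Rhizoma Recens (fresh) and Zingiberis Rhizoma (dried), and of Scutellariae Radix (skullcap root) and Pinelliae Tuber. Low, medium and high dose were 20, 100 and 500 µg/mL in all of these. Ethanol extracts of Coptidis Rhizoma (12.8, 64 and 320 µg/mL) and Zizyphi Fructus (jujube, 20, 100 and 500 µg/mL) had 1 library per dose, so nothing in them could be tested. The reference was a vehicle group of 3 libraries, labelled 0.1% DMSO. The series text gives the vehicle as 2% DMSO, and the labels do not say how much DMSO the extract groups held. Extracts whose 20% inhibitory concentration was under 500 µg/mL were given at that concentration, according to the series text, so the Coptidis Rhizoma doses are lower than the others.

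PPAR-alpha, PPAR-delta and PPAR-gamma are nuclear receptors that fatty acids bind. They sit on DNA with a retinoid X receptor at a direct repeat of a short half-site and raise the transcription of genes that take up, carry and burn fat. PDK4 is a kinase that switches off pyruvate dehydrogenase and so spares glucose when fat is burned. FABP1 carries fatty acids through the cytosol of hepatocytes and enterocytes, and ANGPTL4 is a secreted inhibitor of lipoprotein lipase. CPT1A joins long-chain acyl groups to carnitine at the outer mitochondrial membrane, the rate-limiting step of their entry, and CPT2 returns them to coenzyme A inside. ACADVL starts the oxidation of very long chains in the matrix, and HADHA is the alpha subunit of the trifunctional protein that carries out the later steps.

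The sequence before the transcription start is shown for FABP1, PDK4 and CPT1A, because these are the genes called higher by the largest log2 fold changes. The 250 bases before each start come from RefSeq on GRCh38.p14, all on the minus strand, at chr2:88128063-88128312 for FABP1, chr7:95596517-95596766 for PDK4 and chr11:68844278-68844527 for CPT1A. Capitals mark the PPAR half-site AGGTCA in FABP1 and the GC box GGGCGG in PDK4, each searched on both strands. No half-site and GC box overlapped.
FABP1: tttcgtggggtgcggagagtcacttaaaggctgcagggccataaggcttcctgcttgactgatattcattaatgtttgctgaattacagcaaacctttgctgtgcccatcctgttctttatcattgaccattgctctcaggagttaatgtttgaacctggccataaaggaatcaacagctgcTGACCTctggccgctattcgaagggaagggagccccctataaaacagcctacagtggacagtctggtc
PDK4: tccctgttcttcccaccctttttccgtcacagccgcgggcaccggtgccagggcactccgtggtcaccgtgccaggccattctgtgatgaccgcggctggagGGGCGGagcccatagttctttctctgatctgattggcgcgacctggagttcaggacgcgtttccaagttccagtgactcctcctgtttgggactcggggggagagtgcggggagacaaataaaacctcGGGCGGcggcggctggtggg
CPT1A: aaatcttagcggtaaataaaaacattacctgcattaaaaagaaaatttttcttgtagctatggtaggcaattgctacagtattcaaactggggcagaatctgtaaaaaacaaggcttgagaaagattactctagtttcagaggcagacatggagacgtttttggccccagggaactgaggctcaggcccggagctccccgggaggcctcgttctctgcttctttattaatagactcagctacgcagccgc
The half-site was found in 1 of the 7 genes, FABP1, as the reverse complement TGACCT from base -68 to base -63 relative to the start. It was present in the same window of 12.1% of 35116 RefSeq promoters. A direct repeat of that half-site with any 1 base between its copies was found in none of the 7 and in 0.0171% of all promoters. Only exact copies were sought, which are so rare that their absence from 7 genes carries no information. Repeats with an imperfect copy, also beside the FABP1 half-site, were not searched for. The GC box was found in PDK4, CPT2, ANGPTL4, HADHA and 1 of the 2 ACADVL promoters of the table, against 42.6% of all promoters. A match is a description of the letters only, and these windows say nothing of sites farther away.

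Library totals ran between 18016457 and 35819900 expected counts, so that a gene at 1 CPM (counts per 1000000 counts of its library) had between 18 and 36 counts. All 10 epithelial and colonic markers checked were detected in every library, with a summed level of 8980 to 14300 CPM, whereas 16 markers of immune, stromal, endothelial, hepatic, fat and muscle cells together reached 5.54 to 9.64 CPM. The fat marker ADIPOQ was at 0 in all 60 libraries, and CD14, COL1A1 and PECAM1 made up most of that sum, with medians of 3.33, 1.34 and 1.8 CPM. A library of Pinelliae Tuber at the high dose (replicate 2) had 14.3% of its counts on mitochondrial genes, against a median of 7.27%. Replicate 3 of Scutellariae Radix at the low dose had 9.35% on ribosomal protein genes, against a median of 5.62%, and vehicle replicate 1 had 7.2%. Where calls changed without these 3 libraries, the values or counts without them are given, for the 7 genes and for the pathway and marker lists. The share of mitochondrial counts was highest, 15.2%, in the single library of Coptidis Rhizoma at the low dose. All titles name the same batch, but each sample code in the labels starts with a set number, and vehicle had a set of its own, so for every comparison with vehicle the extract and the code set cannot be told apart. The same 3 vehicle libraries also stand in all of these comparisons, which are therefore not independent of each other. Comparisons between doses, and between extracts of the same code set, do not share this limit.

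Of the 7 genes, 6 passed the filter on low counts and were tested among 16763 genes with edgeR's quasi-likelihood test and Benjamini-Hochberg adjustment. ANGPTL4 (ENSG00000167772, chr19:8363289-8374373, plus strand, GRCh38) did not pass. It had 0 to 8 counts per library, with none in 7 of the 60 libraries, and a median of 0.0922 CPM. Its highest value was 8 counts, or 0.314 CPM with a 95% Poisson interval of 0.136 to 0.619, in the Coptidis Rhizoma library at the high dose. Vehicle had 2, 6 and 2 counts, so a fall or a small rise of ANGPTL4 was not detectable at this depth. A rise beyond 8 counts was seen in no library.

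Levels were compared between genes per kilobase of transcript, since longer transcripts give more counts. Per kilobase of transcript, the median level over the 60 libraries was 70 CPM for ACADVL (ENSG00000072778, chr17:7217125-7225273, plus strand) and 50.3 CPM for HADHA (ENSG00000084754, chr2:26190635-26244726, minus strand). It was 23.2 CPM for CPT1A (ENSG00000110090, chr11:68754620-68844410, minus strand) and 8.39 CPM for CPT2 (ENSG00000157184, chr1:53196429-53214197, plus strand). FABP1 (ENSG00000163586, chr2:88122982-88128116, minus strand) had 3.82 CPM per kilobase and PDK4 (ENSG00000004799, chr7:95583499-95596491, minus strand) had 2 CPM per kilobase. In Zingiberis Rhizoma at the high dose FABP1 averaged 7.89 CPM per kilobase, close to CPT2 at 7.43. The exons of CPT2 and ACADVL overlap genes of the opposite strand, by 11% of the exon bases for CPT2 with AL606760.2 and 1.7% for ACADVL with DLG4. Whether counting used strand is not stated in the labels, so reads in those stretches may be shared.

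**Figure D1:**
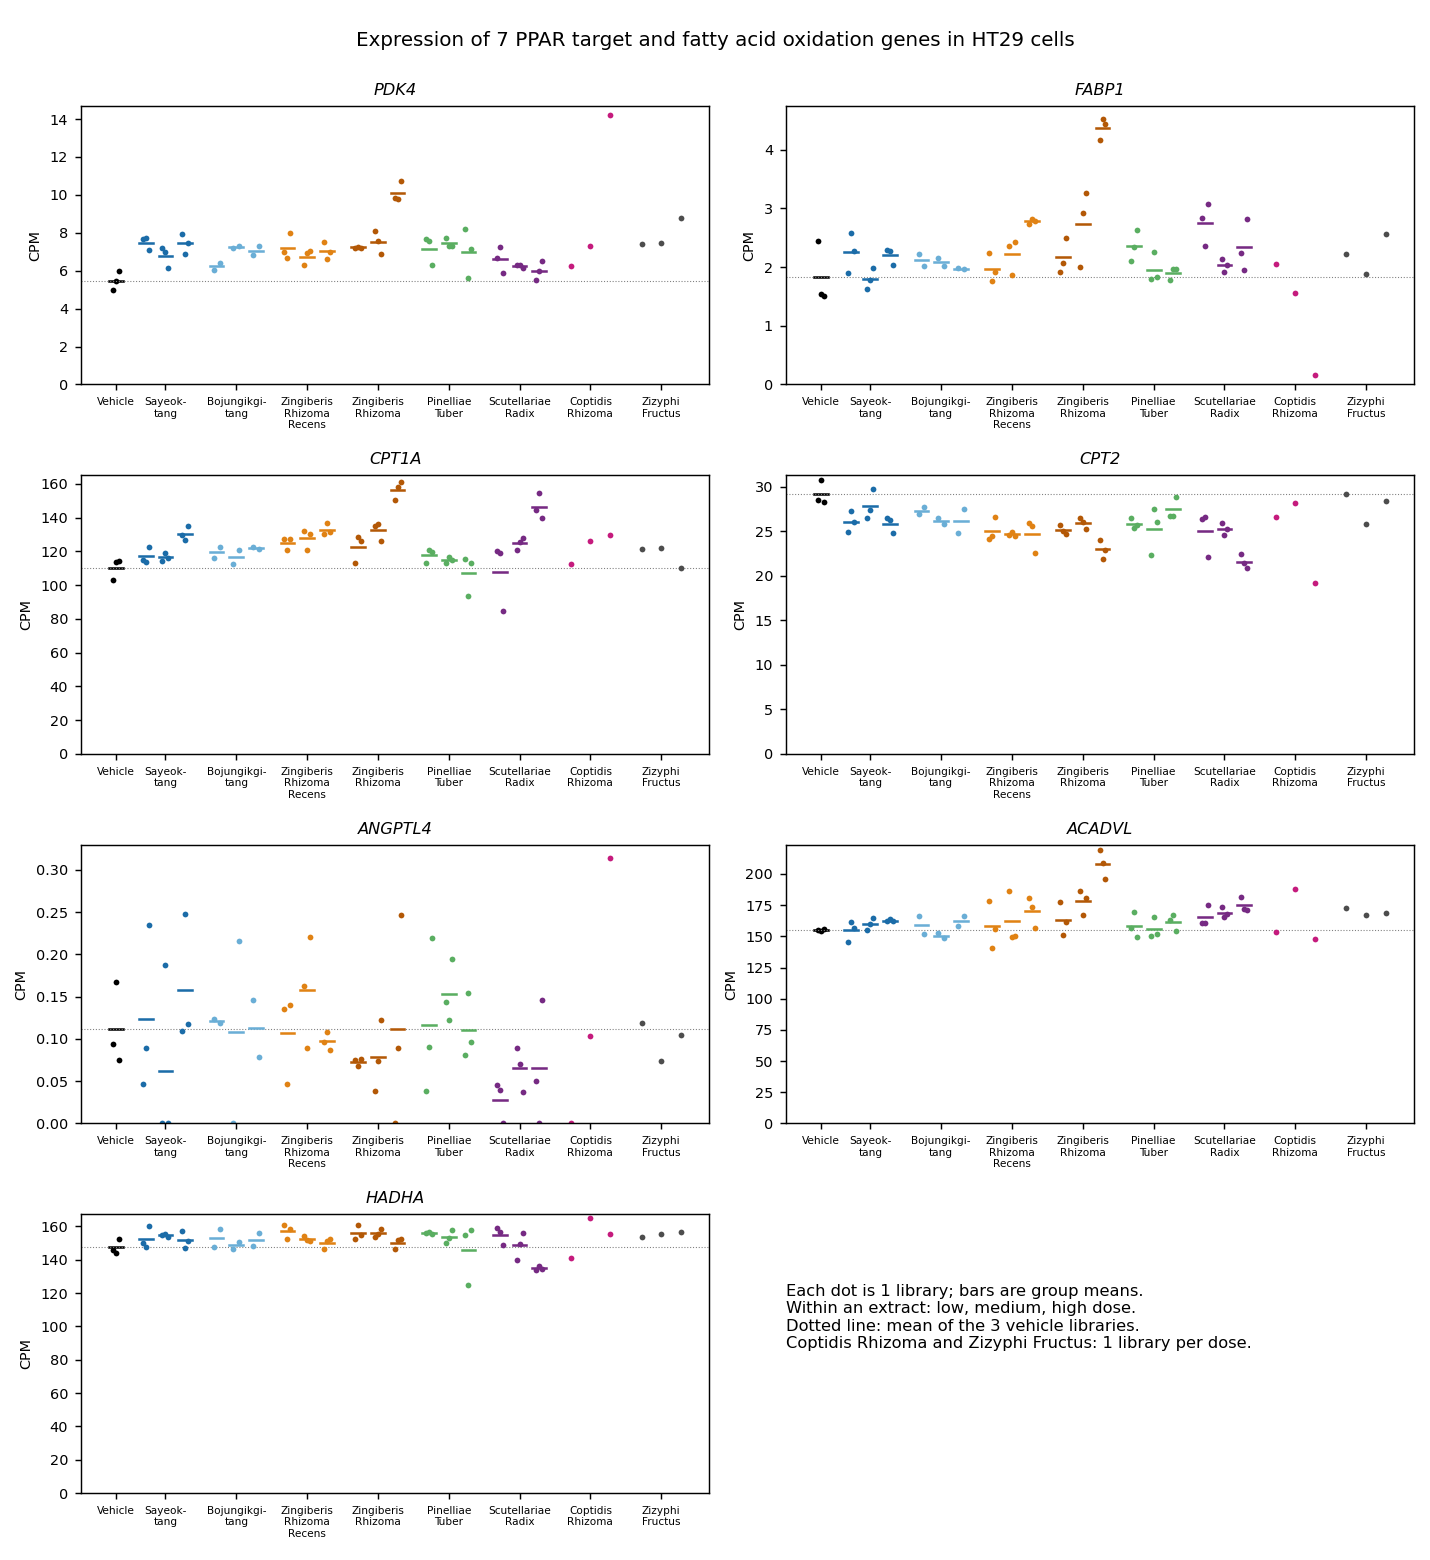
Level of each of the 7 genes in CPM (linear axis) in every library, with vehicle at the left and each extract at low, medium and high dose. Dots are libraries, bars are group means and the dotted line is the vehicle mean; PDK4, FABP1, CPT1A and ACADVL have their highest replicated group at the high dose of Zingiberis Rhizoma, and ANGPTL4 never exceeds 0.314 CPM.

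Dried ginger at the high dose gave the clearest change. PDK4 had 9.84, 9.77 and 10.7 CPM in Zingiberis Rhizoma at the high dose, against 4.98, 5.44 and 6.00 CPM in vehicle. The groups did not overlap, and the log2 fold change was 0.86 ± 0.09 (SE, n = 3 each; adjusted p = 1.36e-09). FABP1 had 4.17, 4.53 and 4.43 CPM in Zingiberis Rhizoma at the high dose, against 2.45, 1.53 and 1.501 CPM in vehicle. Every treated library was above every vehicle library, and the log2 fold change was 1.26 ± 0.17 (adjusted p = 3.72e-07). FABP1 rested on few reads, 90 to 102 counts in these treated libraries and 40 to 55 counts in vehicle. In bulk RNA, fewer cells of a kind and less RNA per cell cannot be told apart, here or in the results that follow.

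CPT1A and ACADVL were also higher, by less. CPT1A had 150.5, 158 and 161 CPM in Zingiberis Rhizoma at the high dose, against 103, 114 and 114 CPM in vehicle, a log2 fold change of 0.48 ± 0.07 (adjusted p = 5.46e-07). ACADVL had 219, 209 and 196 CPM in the treated cells and 155, 155 and 155.5 CPM in vehicle, a log2 fold change of 0.40 ± 0.08 (adjusted p = 0.000609). Neither gene's groups overlapped. CPT2, the partner enzyme of CPT1A, went the other way, with 24.1, 21.9 and 22.9 CPM in treated cells and 28.5, 30.7 and 28.3 CPM in vehicle. Its log2 fold change was -0.37 ± 0.07 (adjusted p = 0.000109), with no overlap. HADHA averaged 150.2 ± 3.31 CPM in treated cells and 147 ± 4.52 CPM in vehicle (SD, n = 3 each), and its log2 fold change of 0.01 ± 0.04 did not pass the test. In all, 5 of the 6 tested genes were called, 4 higher and 1 lower, where 13.1% of all tested genes were called in this comparison, 6.79% higher and 6.33% lower. These 5 calls held under each alternative setting and with each library of either group left out. Vehicle replicate 1 was the highest vehicle library for FABP1, and without the libraries that stood apart the FABP1 value was 1.52 (adjusted p = 1.28e-09).

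The rise of PDK4, FABP1, CPT1A and ACADVL was also seen against the low dose of the same extract, a comparison without vehicle. PDK4 had 7.20, 7.27 and 7.20 CPM at the low dose, and the log2 fold change of high over low dose was 0.51 ± 0.09 (adjusted p = 5.55e-05). FABP1 had 1.92, 2.07 and 2.50 CPM at the low dose, and its log2 fold change was 1.04 ± 0.16 (adjusted p = 1.38e-05). Both genes had all 3 high-dose libraries above all 3 low-dose libraries. CPT1A had 113, 129 and 126 CPM at the low dose, with a log2 fold change of 0.38 ± 0.07 (adjusted p = 6.1e-05). ACADVL had 178, 151 and 162 CPM at the low dose, with a log2 fold change of 0.37 ± 0.08 (adjusted p = 0.002). CPT2 differed by -0.10 ± 0.07 and HADHA by -0.03 ± 0.04 on the log2 scale, and neither passed the test. The 4 calls of 6 stood against 4.34% of all tested genes, and they too held under each alternative and with each library left out.

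Along the dose series of Zingiberis Rhizoma the medium dose lay near the low one. PDK4 averaged 7.22 ± 0.0407 CPM at the low dose, 7.52 ± 0.592 CPM at the medium dose and 10.1 ± 0.535 CPM at the high dose (SD, n = 3 each). FABP1 averaged 2.17 ± 0.3, 2.73 ± 0.655 and 4.38 ± 0.188 CPM at low, medium and high dose, and the low and medium libraries overlapped. Against vehicle, PDK4 was called higher at the low dose, with a log2 fold change of 0.35 ± 0.09 (adjusted p = 0.0305), and at the medium dose, with 0.41 ± 0.09 (adjusted p = 0.013). CPT2 was called lower at the low dose, with -0.27 ± 0.07 (adjusted p = 0.0246). The share of all tested genes called against vehicle was 1.99% at the low dose and 1.06% at the medium dose. These 3 calls were fragile: each was lost without vehicle replicate 1, without vehicle replicate 2, and without replicate 1 or 2 of its own treated group, and both low-dose calls also without treated replicate 3. PDK4 was then between 0.31 and 0.35 at the low dose and between 0.37 and 0.41 at the medium dose, and CPT2 between -0.28 and -0.24. Without the 3 libraries that stood apart, FABP1 and CPT1A also passed the test at the medium dose, with log2 fold changes of 0.83 and 0.20 (adjusted p = 0.00332 and 0.00918).

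**Figure D2:**
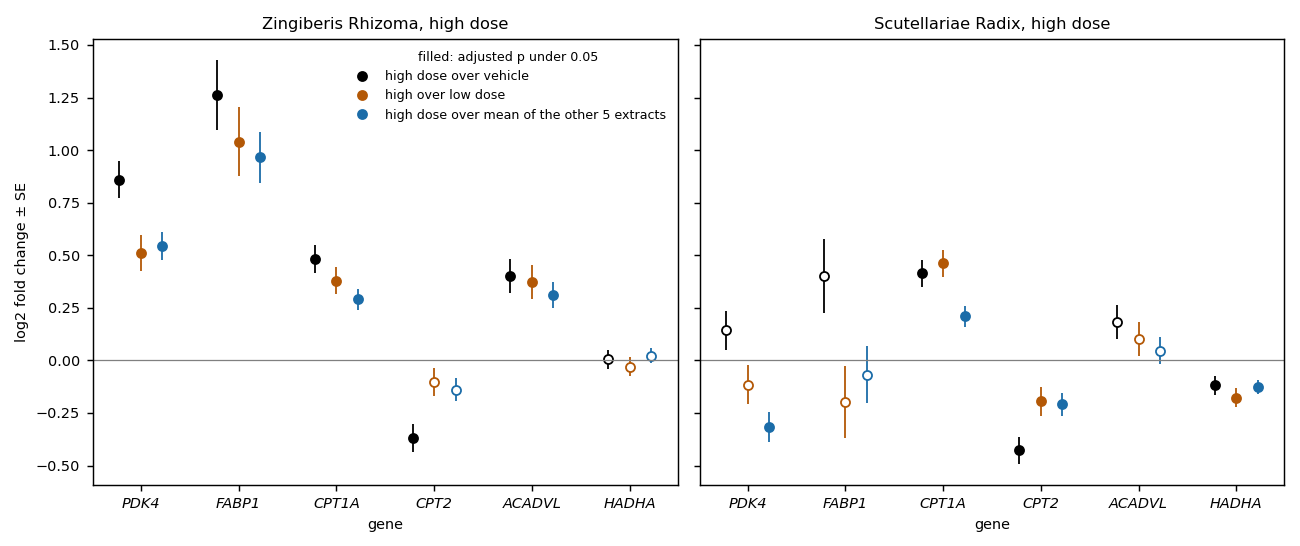
Log2 fold change with its SE of the 6 tested genes for the high dose of Zingiberis Rhizoma (left) and Scutellariae Radix (right) over vehicle, over the low dose of the same extract and over the mean of the other 5 replicated extracts at the high dose. Filled points passed the test: PDK4, FABP1, CPT1A and ACADVL are above 0 in all 3 comparisons for Zingiberis Rhizoma, and CPT2 lies below 0 in all 3 for both extracts.

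Set against the other extracts at the same dose of 500 µg/mL, dried ginger again stood above their mean in PDK4, FABP1, CPT1A and ACADVL. Over the mean of the other 5 replicated extracts, the log2 fold change was 0.96 ± 0.12 for FABP1 (adjusted p = 2.51e-07) and 0.54 ± 0.07 for PDK4 (adjusted p = 1.33e-07). It was 0.31 ± 0.06 for ACADVL (adjusted p = 0.000983) and 0.29 ± 0.05 for CPT1A (adjusted p = 8.71e-05). In CPT1A, Scutellariae Radix at the high dose, with 139.5 to 154.5 CPM, overlapped dried ginger with 150.5 to 161.2 CPM. CPT2, at -0.14 ± 0.05, did not pass the test (adjusted p = 0.206). Thus 4 of 6 genes were called, where 2.82% of all tested genes were. Of the other 5 extracts 4 belong to other code sets, so in this comparison extract and code set cannot be fully told apart, and the same holds for the like comparisons of Scutellariae Radix and Pinelliae Tuber that follow. These 4 calls held with each of the 17 libraries left out in turn and under each alternative.

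Fresh ginger was the closest relative tested, in the same code set. PDK4 had 7.496, 6.64 and 6.99 CPM in Zingiberis Rhizoma Recens at the high dose, below all 3 Zingiberis Rhizoma libraries at the same dose, whose values are given above. The log2 fold change of fresh over dried ginger was -0.53 ± 0.09 (adjusted p = 7.92e-05). FABP1 had 2.74, 2.81 and 2.78 CPM with fresh ginger, also without overlap, and a log2 fold change of -0.66 ± 0.16 (adjusted p = 0.0124). CPT1A had 130.5, 137 and 131 CPM and ACADVL 180.5, 174 and 156 CPM with fresh ginger. Their log2 fold changes were -0.24 ± 0.07 and -0.29 ± 0.08 (adjusted p = 0.0279 and 0.0381). That made 4 calls among the 6 genes, all lower with fresh ginger, against 2.26% of all tested genes. The PDK4 call held with each library left out. The FABP1 and CPT1A calls were lost without any of the 3 fresh ginger libraries and without dried ginger replicates 2 or 3, at log2 values of -0.67 to -0.64 and -0.27 to -0.22. The ACADVL call was lost without dried ginger replicate 1 or 2 or fresh ginger replicate 2 or 3, at -0.31 to -0.23. CPT1A also lost its call without the low-count filter (adjusted p = 0.169). At the low and medium doses 0 of the 6 genes were called between the gingers, and 0% of all tested genes were.

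Against vehicle, fresh ginger at the high dose was itself called higher for PDK4 (log2 fold change 0.33 ± 0.09, adjusted p = 0.0253), FABP1 (0.60 ± 0.17, adjusted p = 0.0298) and CPT1A (0.24 ± 0.07, adjusted p = 0.0225). CPT2 was lower (-0.27 ± 0.07, adjusted p = 0.0113). These were 4 of 6 genes against 6.36% of all tested genes. At the low dose PDK4 (0.35 ± 0.09, adjusted p = 0.0292) and CPT2 (-0.26 ± 0.07, adjusted p = 0.0246) were called, against 3.1% of all genes. At the medium dose CPT2 was called alone (-0.29 ± 0.07, adjusted p = 0.0209), against 2.16%. Between the high and low doses of fresh ginger 0 of 6 genes were called, against 0.489% of all genes, although FABP1 differed by 0.50 ± 0.17. None of the 7 calls against vehicle held with every library left out. Vehicle replicate 2 ended all 7, vehicle replicate 1 all but FABP1, and vehicle replicate 3 FABP1 alone. Each fresh ginger library of the group ended 4 of the calls (CPT2 at the medium dose, PDK4 at the low dose, FABP1 and CPT1A at the high dose). Replicates 1 and 3 ended PDK4 at the high dose, replicates 1 and 2 ended CPT2 at the low dose, and replicate 3 ended CPT2 at the high dose. The log2 values were then 0.28 to 0.40 for PDK4, 0.47 to 0.61 for FABP1, 0.21 to 0.25 for CPT1A and -0.30 to -0.20 for CPT2.

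Scutellariae Radix at the high dose differed from vehicle in both carnitine enzymes and in HADHA, and no other of the 6 genes passed the test. CPT1A had 144.5, 154.5 and 139.5 CPM in Scutellariae Radix at the high dose, against 103, 114 and 114 CPM in vehicle, a log2 fold change of 0.41 ± 0.07 (adjusted p = 4.54e-06). CPT2 had 22.5, 21.4 and 20.9 CPM against 28.5, 30.7 and 28.3 CPM in vehicle, a log2 fold change of -0.43 ± 0.07 (adjusted p = 3.51e-06). Neither gene's groups overlapped. HADHA had 134, 136.5 and 134 CPM against 146, 144 and 152.5 CPM in vehicle, also without overlap, and a log2 fold change of -0.12 ± 0.04 (adjusted p = 0.0467). PDK4 at 0.14 ± 0.09, FABP1 at 0.40 ± 0.18 and ACADVL at 0.18 ± 0.08 did not pass the test. The 3 calls of 6 stood against 23.6% of all tested genes. The CPT1A and CPT2 calls held under each alternative and with each library left out. HADHA was lost without vehicle replicate 1 or 3 or any of the 3 treated libraries, at log2 values of -0.13 to -0.10, and under 3 other settings. Without the 3 libraries that stood apart, FABP1 passed the test here with 0.66 (adjusted p = 0.00389). Of all tested genes 31% were then called.

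The high dose of Scutellariae Radix differed from its low dose in the same 3 genes. CPT1A had 119.9, 119 and 84.9 CPM at the low dose, where the lowest value was that of replicate 3, the library rich in ribosomal protein counts. Its log2 fold change of high over low dose was 0.46 ± 0.07 (adjusted p = 6.73e-07), and 0.34 without that library (adjusted p = 8.04e-06). HADHA had 159, 157 and 149 CPM at the low dose, all above the high dose, and a log2 fold change of -0.18 ± 0.04 (adjusted p = 0.00305). CPT2 had 26.4, 26.7 and 22.1 CPM at the low dose, overlapping the high dose, and a log2 fold change of -0.20 ± 0.07 (adjusted p = 0.0321). That was 3 calls of 6 against 22.5% of all tested genes. The CPT2 call was lost without replicate 1 or 2 of the low dose or replicate 2 or 3 of the high dose, at -0.19 to -0.16. With a fit of only the libraries compared, none of the 3 calls remained, at adjusted p = 0.161 for CPT1A, 0.356 for CPT2 and 0.292 for HADHA. Without the low-count filter CPT2 and HADHA lost their calls, at adjusted p = 0.293 and 0.236. At the medium dose CPT2 was called lower than vehicle (-0.22 ± 0.07, adjusted p = 0.0233), 1 gene of 6 against 9.53% of all genes, and at the low dose 0 of 6 against 0.382%. The medium-dose call was lost without vehicle replicate 1 or 2 or treated replicate 2 or 3, at -0.22 to -0.19. Without the 3 libraries that stood apart, 2 further differences from vehicle passed the test. They were CPT1A at the medium dose (0.14, adjusted p = 0.0358) and FABP1 at the low dose (0.75, adjusted p = 0.0218).

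Pinelliae Tuber, the other extract of that code set, differed from Scutellariae Radix in the carnitine enzymes and HADHA at the high dose. CPT1A had 144.5, 154.5 and 139.5 CPM in Scutellariae Radix and 116, 93.5 and 113 CPM in Pinelliae Tuber at the high dose. The log2 fold change of Scutellariae Radix over Pinelliae Tuber was 0.43 ± 0.07 (adjusted p = 2.67e-06), and 0.39 without the 3 libraries that stood apart, of which the Pinelliae Tuber library with 93.5 CPM was one. CPT2 had 22.5, 21.4 and 20.9 CPM in Scutellariae Radix and 26.8, 26.8 and 28.9 CPM in Pinelliae Tuber, a log2 fold change of -0.37 ± 0.07 (adjusted p = 4.93e-05). The groups did not overlap for either gene. HADHA had 134, 136.5 and 134 CPM in Scutellariae Radix and 155, 125 and 158 CPM in Pinelliae Tuber, which overlap, and a log2 fold change of -0.13 ± 0.04 (adjusted p = 0.0315). The 3 calls of 6 stood against 22.8% of all genes, while at the low and medium doses 0 of 6 were called, against 0.0418% and 3.05%. HADHA lost its call without replicate 1 or 3 of Pinelliae Tuber or any Scutellariae Radix library, at -0.14 to -0.10, and without the low-count filter. Without the libraries that stood apart PDK4 passed the test, lower in Scutellariae Radix (-0.31, adjusted p = 0.02). In a fit of the 6 high-dose libraries alone, CPT1A, CPT2 and HADHA had adjusted p = 0.0503, 0.0984 and 0.489. At the medium dose, a fit of only the libraries compared called CPT1A (0.15, adjusted p = 0.000669) and ACADVL (0.145, adjusted p = 0.00338), both higher in Scutellariae Radix. CPT1A also passed at the medium dose without the 3 libraries that stood apart (0.15, adjusted p = 0.0179).

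Over the mean of the other 5 extracts at the high dose, Scutellariae Radix was higher in CPT1A (log2 fold change 0.21 ± 0.05, adjusted p = 0.00219) and lower in CPT2 (-0.21 ± 0.05, adjusted p = 0.00405). It was also lower in HADHA (-0.13 ± 0.04, adjusted p = 0.00986) and in PDK4 (-0.32 ± 0.07, adjusted p = 0.00144), 4 of 6 genes against 14.3% of all tested genes. PDK4 had 5.496, 5.96 and 6.52 CPM there, the lowest replicated group after vehicle. CPT1A lost its call without Scutellariae Radix replicate 2 (0.17, adjusted p = 0.0624), and HADHA without replicate 1 (-0.11, adjusted p = 0.084). Without the low-count filter PDK4, CPT2 and HADHA lost their calls, at adjusted p = 0.0549, 0.0955 and 0.385. Pinelliae Tuber was lower in CPT1A (-0.30 ± 0.05, adjusted p = 5.2e-05) and FABP1 (-0.40 ± 0.14, adjusted p = 0.0419) and higher in CPT2 (0.23 ± 0.05, adjusted p = 0.0013), 3 of 6 genes against 17.1%. CPT2 there lost its call without Pinelliae Tuber replicate 2 (0.19, adjusted p = 0.0706). The FABP1 call was lost without each of the 3 Pinelliae Tuber libraries and 7 others: both Bojungikgi-tang libraries, Sayeok-tang replicates 1 and 2, replicate 2 of each ginger and Scutellariae Radix replicate 3, at -0.50 to -0.32. DESeq2, a fit of only the libraries compared and a fit without the low-count filter ended it as well (adjusted p = 0.0573, 0.0585 and 0.12). Sayeok-tang, Bojungikgi-tang and Zingiberis Rhizoma Recens had 0 of 6 genes called against the other extracts, where 0.495%, 0.698% and 0.638% of all genes were. Without the 3 libraries that stood apart, CPT1A of Bojungikgi-tang was called lower (-0.16, adjusted p = 0.0126).

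Against vehicle, Pinelliae Tuber was called higher in PDK4 at the medium dose (log2 fold change 0.40 ± 0.09, adjusted p = 0.0134) and the high dose (0.37 ± 0.09, adjusted p = 0.0139). At the medium dose CPT2 was lower (-0.25 ± 0.07, adjusted p = 0.0333). That was 0, 2 and 1 of 6 genes at low, medium and high dose, against 0.549%, 2.11% and 5.12% of all tested genes. PDK4 had 8.18, 5.61 and 7.12 CPM at the high dose, and the lowest of these, replicate 2, overlapped the vehicle values of 4.98, 5.44 and 6.00 CPM. All 3 calls were lost without vehicle replicate 1 or 2 and without treated replicate 1, and CPT2 also without treated replicate 3. The log2 values were then 0.27 to 0.38 for PDK4 and -0.27 to -0.17 for CPT2. Without the low-count filter all 3 calls were lost, at adjusted p = 0.0659 and 0.0893 for PDK4 at medium and high dose and 0.158 for CPT2. A fit of only the libraries compared ended PDK4 at the high dose (adjusted p = 0.776) and CPT2 (adjusted p = 0.0748). Between the high and low doses 0 of 6 genes were called, against 1.78% of all genes. Without the 3 libraries that stood apart, PDK4 (0.32, adjusted p = 0.0417) and FABP1 (0.63, adjusted p = 0.0326) also passed the test at the low dose against vehicle.

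The formulas gave few calls. Sayeok-tang was called higher in PDK4 at the low dose, where 3.3% of all tested genes were called, and at the high dose, where 2.85% were. PDK4 had 7.96, 6.88 and 7.47 CPM in Sayeok-tang at the high dose and 7.67, 7.72 and 7.07 CPM at the low dose, against 4.98, 5.44 and 6.00 CPM in vehicle. The groups did not overlap, with log2 fold changes of 0.41 ± 0.09 at the high dose (adjusted p = 0.00848) and 0.40 ± 0.09 at the low dose (adjusted p = 0.0121). The high-dose call was lost without vehicle replicate 1 or treated replicate 1 (0.37 in both). The low-dose call was lost without vehicle replicate 1 or 2 or treated replicate 1 or 2 (0.36 to 0.38). At the medium dose 0 of 6 genes were called, against 0.793%. Without the 3 libraries that stood apart, CPT1A (0.185, adjusted p = 0.0106) and CPT2 (-0.20, adjusted p = 0.0452) also passed the test at the high dose. FABP1 (0.545, adjusted p = 0.0473) and CPT2 (-0.20, adjusted p = 0.0388) then passed at the low dose. DESeq2 called CPT1A at the high dose and CPT2 at both doses as well. Bojungikgi-tang, with 2 libraries per dose, had 0 of 6 genes called at each dose, against 0.424%, 1.49% and 0.626% of all genes at low, medium and high dose. Its PDK4 values at the medium dose, 7.20 and 7.28 CPM, were above all vehicle values (0.36 ± 0.10, adjusted p = 0.0573). Without the 3 libraries that stood apart this PDK4 difference passed the test (0.33, adjusted p = 0.0374). In the main fit neither formula differed between high and low dose in any of the 6 genes, against 0.382% and 0.0656% of all genes. CPT1A of Sayeok-tang passed, higher at the high dose, without the 3 libraries that stood apart (0.17, adjusted p = 0.0221). It also passed in a fit of only the libraries compared (0.17, adjusted p = 0.0138). Sayeok-tang against Bojungikgi-tang likewise gave 0 of 6 at each dose, against 0% at low and medium dose and 0.00597% at the high dose.

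**Figure D3:**
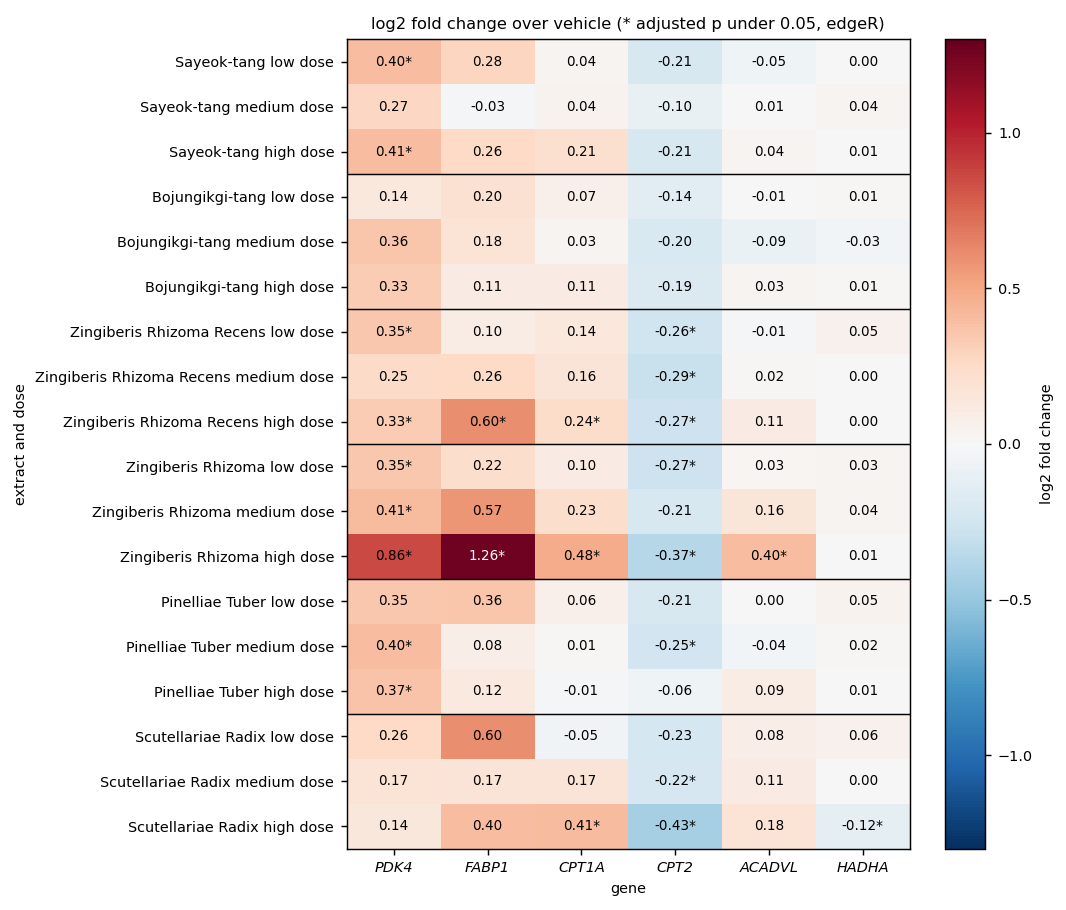
Log2 fold change over vehicle of the 6 tested genes for the 6 replicated extracts at each dose, red for higher and blue for lower than vehicle, with an asterisk where the adjusted p was under 0.05. All 18 PDK4 values are above 0 and all 18 CPT2 values below 0; the largest value is FABP1 in Zingiberis Rhizoma at the high dose, 1.26.

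Across all groups, vehicle was at the low end for PDK4 and near the high end for CPT2. The vehicle mean of PDK4, 5.48 ± 0.511 CPM, was below the levels of all 24 extract groups, the next being 5.99 ± 0.51 CPM in Scutellariae Radix at the high dose, which does not differ beyond this spread. The vehicle mean of CPT2, 29.2 ± 1.345 CPM, was above 23 of the 24 extract groups. Because all of these values share the same vehicle libraries and vehicle is a code set of its own, a low PDK4 value or a high CPT2 value in vehicle cannot be told apart from an effect common to the extracts. Of the 24 calls against vehicle, 17 were lost when some library was left out. Vehicle replicate 1 ended 16 of them, replicate 2 ended 15 and replicate 3 ended 2. The 8 PDK4 calls among them had log2 values of 0.33 to 0.415 in the main fit and 0.29 to 0.375 without vehicle replicate 1. All calls were kept when that library was left out together with the other 2 that stood apart. Without the low-count filter 16 of the 17 were lost, and with a fit of only the libraries compared 12. The 7 that were not lost are the 5 of Zingiberis Rhizoma and the CPT1A and CPT2 calls of Scutellariae Radix, all at the high dose.

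Coptidis Rhizoma, with 1 library per dose, had the highest PDK4 and the lowest FABP1 and CPT2 values of the 60 libraries, all at its high dose. PDK4 was at 6.27, 7.31 and 14.2 CPM at 12.8, 64 and 320 µg/mL, against 4.98, 5.44 and 6.00 CPM in vehicle. The high-dose value rests on 363 counts (95% Poisson interval 12.8 to 15.8 CPM, counting error only) and was 2.47 times the vehicle mean, with 0.5 CPM added to both. FABP1 was at 2.05, 1.55 and 0.157 CPM at the rising doses, against 2.45, 1.53 and 1.501 CPM in vehicle. The high-dose library had 4 FABP1 counts (interval 0.0428 to 0.402 CPM), a log2 ratio of -1.83, which was -2.91 with 0.1 CPM added and -1.29 with 1 CPM. PDK4 was thus above and FABP1 below all 3 vehicle libraries. CPT2 was at 19.2 CPM at the high dose (interval 17.6 to 21), with a log2 ratio of -0.59. CPT1A, ACADVL and HADHA were at 129.4, 148 and 156 CPM, with log2 ratios of 0.23, -0.07 and 0.08. Of all genes tested elsewhere, 12.3% had a log2 ratio above 1 in size in that library, and 2 of the 7 genes did, PDK4 and FABP1. At the medium and low doses 0 of 7 did, against 1.38% and 0.597% of all genes. With 0.5 CPM added, ANGPTL4 could not fall by that size, since 0 counts at the low dose gave a log2 ratio of -0.29. It is also not among the genes behind these shares. The share of counts on mitochondrial genes was 15.2%, 6.61% and 3.44% at the low, medium and high dose, against 8.86%, 7.62% and 8.22% in vehicle. The first and last of these are the highest and the lowest of the series, and the part of this in the values was not tested.

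Zizyphi Fructus, also with 1 library per dose, had no gene with a log2 ratio above 1 in size. PDK4 was at 7.39, 7.46 and 8.76 CPM at 20, 100 and 500 µg/mL, above all 3 vehicle libraries, with a log2 ratio of 0.63 at the high dose. FABP1 was at 2.23, 1.88 and 2.57 CPM, within or just above the vehicle range of 1.501 to 2.45 CPM. At each dose 0 of 7 genes passed that size, against 0.376%, 0.424% and 0.549% of all genes at low, medium and high dose. ANGPTL4 could not have fallen by that size here either.

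**Figure D4:**
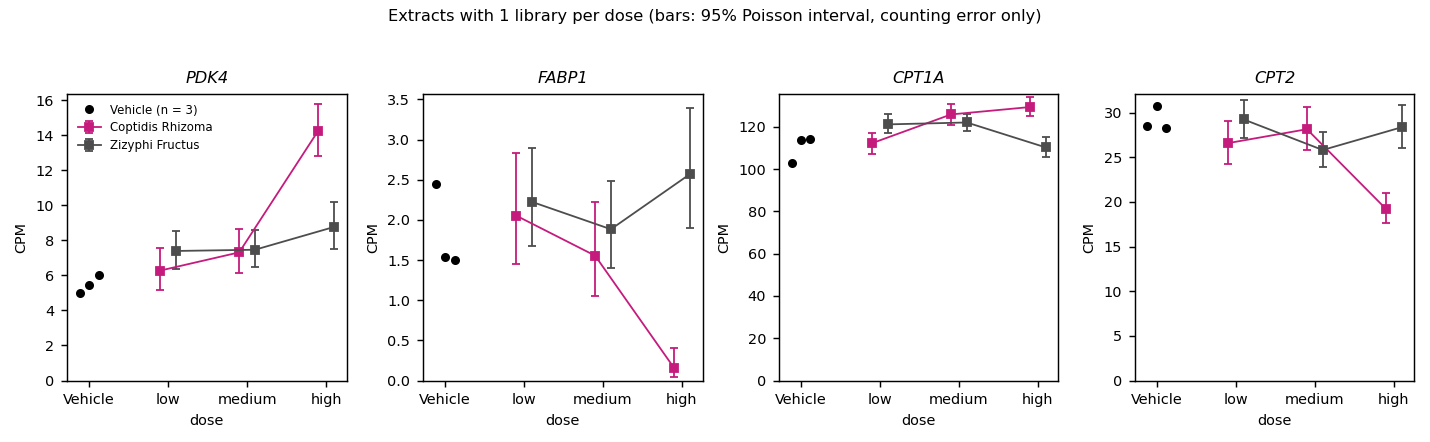
PDK4, FABP1, CPT1A and CPT2 in CPM in the single libraries of Coptidis Rhizoma and Zizyphi Fructus at low, medium and high dose, with the 3 vehicle libraries at the left. Bars are 95% Poisson intervals, which cover counting error only; at the high dose of Coptidis Rhizoma PDK4 is at 14.2 CPM and FABP1 at 0.157 CPM.

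The rest of the pathway was read from lists of 92 other genes, 73 of which were tested. The lists were drawn up with earlier results of these data known. In Zingiberis Rhizoma at the high dose, 10 of the 73 were higher and 4 lower than vehicle, which is 14 genes beside 13.1% of all tested genes, with a median log2 fold change of 0.01 in the list and -0.01 over all genes. Against the low dose 4 were higher and 3 lower, where 2.3% of all tested genes were higher and 2.04% lower, with medians of 0.03 and 0.00. The higher ones against the low dose were PLIN2, which coats lipid droplets (0.54, adjusted p = 1.4e-05), and the acyl-CoA synthetases ACSL5 (0.34, adjusted p = 1.4e-07), ACSL1 (0.30, adjusted p = 0.0059) and ACSL3 (0.20, adjusted p = 0.0038). The lower ones were TXNIP, a thioredoxin inhibitor that restrains glucose uptake (-0.50, adjusted p = 3.9e-10), AMACR, a peroxisomal racemase (-0.33, adjusted p = 0.02), and VNN1, a pantetheinase (-0.29, adjusted p = 0.016). Of the 13 other genes of mitochondrial beta-oxidation tested, 0 were called against the low dose, and 1, DECR1, was lower than vehicle (-0.30, adjusted p = 0.025). Of the 5 other carnitine genes tested 0 were called in either comparison. None of the 6 receptors, partners and coactivators tested was called in either comparison, and PPARA differed from vehicle by 0.30 ± 0.11 on the log2 scale (adjusted p = 0.051). Without the 3 libraries that stood apart, a setting added for the lists after the data were seen, 17 of the 73 genes were higher and 7 lower than vehicle, where 12.1% of all tested genes were higher and 8.89% lower. Against the low dose 9 were then higher and 8 lower, against 5.6% and 5.15%, and PPARA passed the test in both comparisons (0.21 over vehicle and 0.16 over the low dose, adjusted p = 0.000903 and 0.0109). Of the 13 beta-oxidation genes 3 were then higher and 2 lower than vehicle, and 3 were higher and 1 lower than the low dose. Of the 5 other carnitine genes 1 was then lower than the low dose. The counts of the lists thus depend on these libraries.

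Fresh ginger differed from dried ginger at the high dose in 5 of the 73 genes, where 2.26% of all tested genes were called. The lower ones with fresh ginger were ACSL1 (-0.46, adjusted p = 4.21e-05), PLIN2 (-0.45, adjusted p = 0.000646), ACSL5 (-0.28, adjusted p = 1.33e-05) and ACSL3 (-0.26, adjusted p = 0.00025), and TXNIP was higher (0.41, adjusted p = 1.68e-07). All 5 are among the 7 genes called between the doses of dried ginger, a comparison that shares the high-dose dried ginger libraries. AMACR (0.15, adjusted p = 0.727) and VNN1 (0.14, adjusted p = 0.676) did not pass the test between the gingers. Without the libraries that stood apart, 2 genes were higher and 9 lower with fresh ginger, against 1.99% and 4.11% of all tested genes.

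In Scutellariae Radix genes of the pathway were called in both directions. Against the low dose 13 of the 73 genes were higher and 24 lower, with a median log2 fold change of -0.13 in the list and -0.02 over all genes, where 10.7% of all tested genes were higher and 11.7% lower. Of 13 genes of mitochondrial beta-oxidation 0 rose and 6 fell, among them ACADS (-0.55, adjusted p = 0.0039), DECR1 (-0.45, adjusted p = 0.00038) and HADH (-0.26, adjusted p = 0.0088). Of 11 peroxisomal genes 0 rose and 6 fell, among them AMACR (-0.56, adjusted p = 1.2e-05), PECR (-0.50, adjusted p = 0.0012) and EHHADH (-0.44, adjusted p = 0.0067). Of 7 genes for the activation and uptake of fatty acids 4 rose and 0 fell: ACSL1 (0.47), ACSL4 (0.33), ACSL3 (0.28) and ACSL5 (0.23). PLIN2 rose by 0.39 on the log2 scale (adjusted p = 0.00091). Among the receptors PPARG fell by 0.15 (adjusted p = 0.021). Of 11 genes of pyruvate dehydrogenase and its regulators 5 rose and 2 fell, and PDK2, a relative of PDK4, fell by 0.50 (adjusted p = 0.00078). PDK4 itself differed by -0.12 ± 0.09 and did not pass the test. Without the libraries that stood apart, 1 of which is of this low dose, 11 of the 73 genes were higher and 18 lower, against 10.3% and 10.1% of all tested genes. Of the 13 beta-oxidation genes 2 were then lower, ACADS (-0.41, adjusted p = 0.0366) and DECR1 (-0.29, adjusted p = 0.0102), while HADH (adjusted p = 0.0559) and PPARG (adjusted p = 0.079) lost their calls. The peroxisomal list still had 0 higher and 6 lower, and the activation list 5 higher and 0 lower. The list of pyruvate dehydrogenase and its regulators then had 3 higher and 1 lower.

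**Figure D5:**
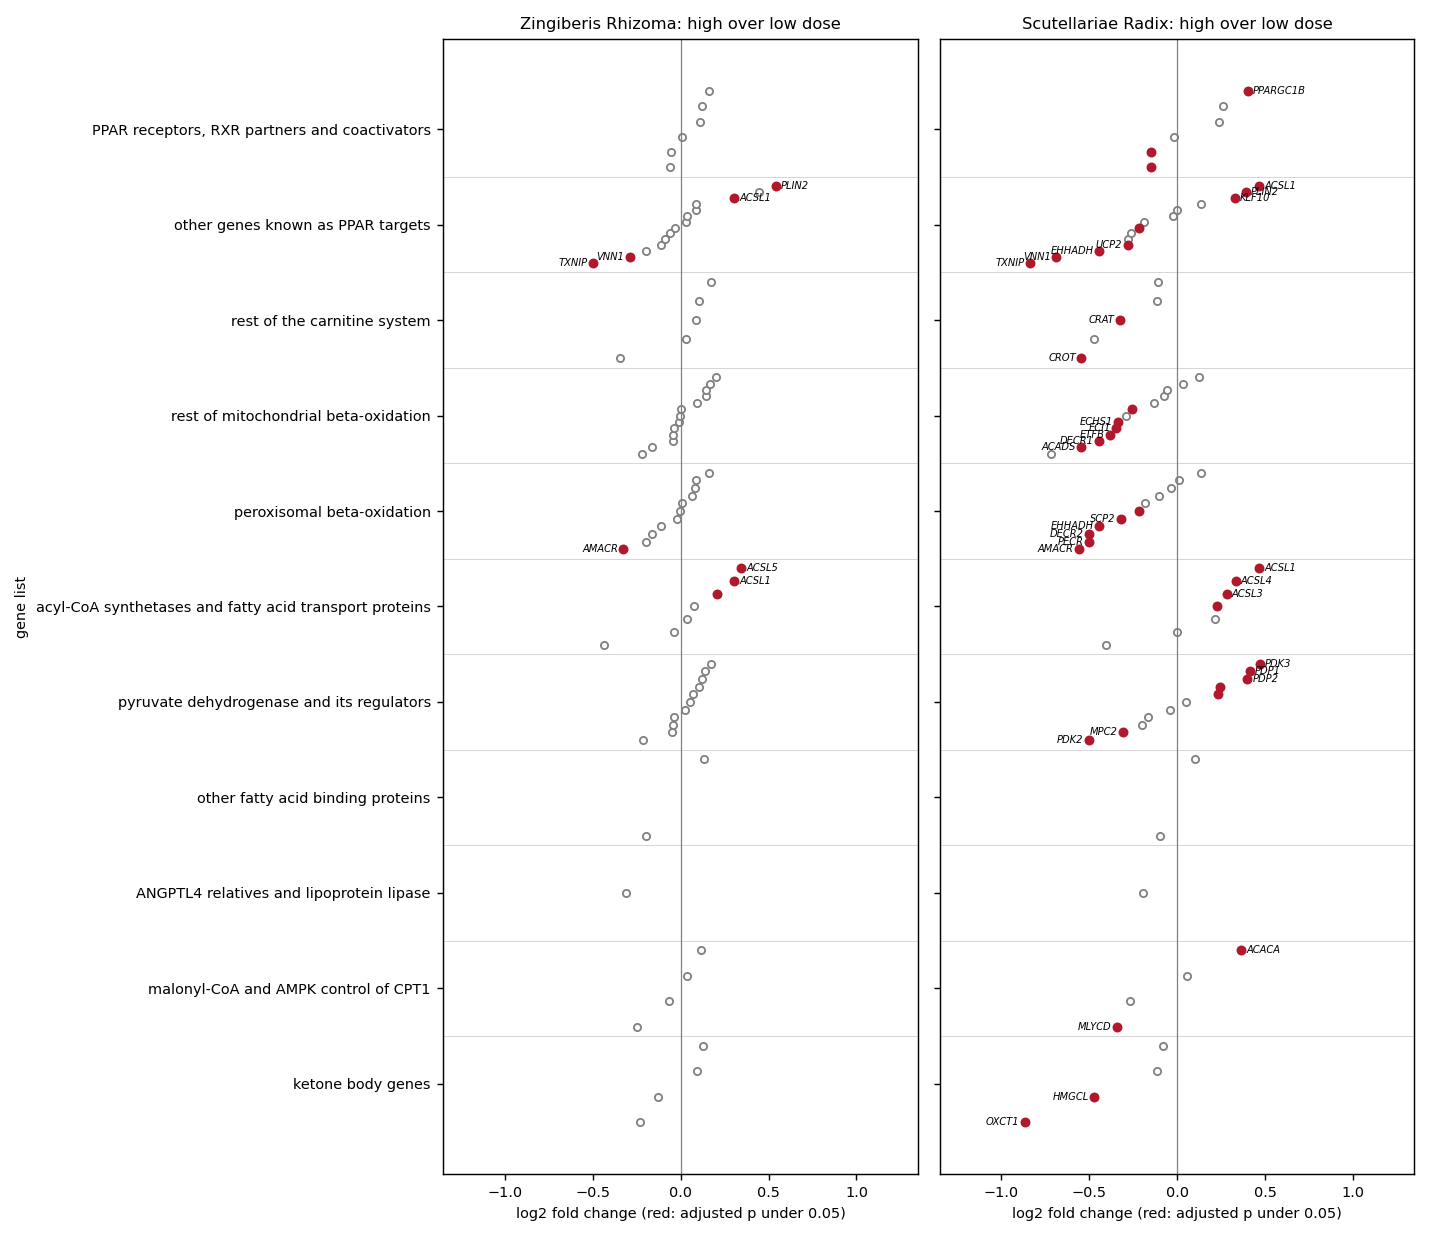
Log2 fold change of high over low dose for the genes of the PPAR and fatty acid pathway lists in Zingiberis Rhizoma (left) and Scutellariae Radix (right), 1 dot per gene and 1 band per list, red where the adjusted p was under 0.05. In Scutellariae Radix the called genes of mitochondrial and peroxisomal beta-oxidation all lie left of 0 and the called acyl-CoA synthetases right of 0; genes in 2 lists are drawn in both.

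Of the 10 epithelial and colonic markers, 2 were higher, 3 lower and 5 did not pass the test in Zingiberis Rhizoma at the high dose against vehicle. Of all tested genes 13.1% were called there. KRT20 (0.46, adjusted p = 3.1e-08) and CEACAM5 (1.07, adjusted p = 1.9e-06) were higher, and VIL1 (-0.27, adjusted p = 9.4e-06), LGALS4 (-0.32, adjusted p = 0.00166) and KRT8 (-0.36, adjusted p = 0.02) were lower. The same 5 markers were called the same way in Scutellariae Radix at the high dose, where 23.6% of all tested genes were called. KRT20 (0.48, adjusted p = 3.9e-09) and CEACAM5 (0.82, adjusted p = 7.8e-05) were higher there, and VIL1 (-0.44, adjusted p = 3e-11), LGALS4 (-0.33, adjusted p = 0.000611) and KRT8 (-0.30, adjusted p = 0.0351) were lower. Without the libraries that stood apart all 5 kept their calls in both extracts, with 2 of the 10 markers higher and 5 lower in each. The shares of all tested genes called were then 21% in Zingiberis Rhizoma and 31% in Scutellariae Radix. The summed level of the 10 epithelial markers was 10500 to 10900 CPM in Zingiberis Rhizoma at the high dose and 10500 to 11300 CPM in Scutellariae Radix, against 12000 to 13600 CPM in vehicle. KRT8 and KRT18 made up most of that sum, with medians over all libraries of 5710 and 3560 CPM beside 11200 CPM for the sum. The sum therefore says little of the other markers, of which KRT20 and CEACAM5 were higher. The part of this in the results for the 7 genes was not tested.

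As a description over the 19 group means of the replicated groups, which share libraries and the vehicle code set, the 6 tested genes did not follow a single pattern. FABP1 and ACADVL were the most alike (Pearson r = 0.813), followed by CPT1A and ACADVL (0.780), whereas CPT1A and CPT2 ran in opposite directions (-0.721). PDK4 was most like FABP1 (0.677), and HADHA was like none of the others (between -0.481 and 0.371). The 3 genes of most similar pattern were ABCG2, an efflux pump (0.876), TRIM31 (0.835) and CDS2 (0.778) for PDK4. For FABP1 they were PTGR1, a prostaglandin reductase (0.813), ALDH1A1, an aldehyde dehydrogenase (0.807), and ZNF587B (0.794). For ACADVL they were PTGR1 again (0.925), AKR1C3, an aldo-keto reductase (0.914), and EPHX1, an epoxide hydrolase (0.902). The AKR1C genes are near-identical copies, so the counts of AKR1C3 are uncertain. For CPT1A the closest were PPP1R26 (0.915), CTTN (0.914) and JAG1 (0.911), for CPT2 PHGR1 (0.898), SYNGR2 (0.896) and CAPN1 (0.895), and for HADHA ZNF552 (0.912), GBP2 (0.894) and PDZK1 (0.881).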

How the data were processed

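The authors deposited 1 table of RSEM expected counts for Ensembl genes by library. Per the submitters' processing notes, the tools were RSEM 1.3.3, STAR 2.7.3a, Trim Galore 0.6.5 and FastQC 0.11.9, with hg38 as the genome; annotation release and strand setting: not given in the sources used here. Per the labels' protocols, 1 µg of total RNA went into directional mRNA libraries read as 100 bp pairs. The table holds 210 further columns, which stayed unused. Between 90% and 92.1% of the values of a library were whole. Symbols and positions come from GENCODE 29 on GRCh38 (57055 of 60675 IDs).

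Expected counts were rounded and tested with edgeR 4.0.16 in R 4.3.3. A single model held 54 libraries, those of the 19 groups of 2 or 3. Genes were filtered by filterByExpr on the groups (16763 left), scaled by TMM, given a trended dispersion, and tested by glmQLFit (robust) and glmQLFTest with 35 residual degrees of freedom. Benjamini-Hochberg adjustment at 0.05 ran over all genes within each of 39 comparisons. The SE was taken as the absolute log2 fold change divided by the square root of F. CPM are counts per 1000000 of the library total. Single libraries were set against the vehicle mean as log2(CPM + 0.5). No label says whether the replicates were grown separately, so the p-values describe the spread among these libraries, which may be technical.

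The 7 genes, the gene lists and the tests were chosen with earlier results of these data known. One gene was left out of the lists and is not reported here. Named pathway genes are up to 4 of each list with the smallest p in a comparison, or those called most often, and genes of similar pattern the 3 with the highest correlation of group means (average log2 CPM above 2). Alternatives were DESeq2 1.42.0, edgeR with its size factors, dropping the low-count filter, a fit of the libraries compared alone, replicate blocks, leaving out 3 libraries that stood apart, leaving out each library, and pseudocounts of 0.1 and 1 CPM. Pathway and marker list counts without the 3 libraries were added after the data were seen. The fit was tested on counts simulated over 16492 genes for Zingiberis Rhizoma at the high dose against vehicle. With average log2 CPM above 1, it recovered 92% of 73 genes changed 1.5-fold and 100% of 65 changed 2-fold. Over all changed genes it recovered 69% and 70%, and 6.2% of calls were unchanged genes. The counts were drawn with the fit's own trended dispersion, without outlying libraries or an effect of code set. Changes under 1.5-fold were not simulated, so the shares do not extend to them.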

Additional observations from a re-analysis of the deposited data

Results flagged for a closer look

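In 7 instances 1 of the 6 tested genes differed between extracts of the same code set at the same dose, all at the high dose, by edgeR's quasi-likelihood test of the difference itself. Fresh ginger over dried ginger gave log2 fold changes of -0.53 for PDK4, -0.66 for FABP1, -0.24 for CPT1A and -0.29 for ACADVL, with all 3 fresh ginger libraries below all 3 dried ginger libraries in each gene. Scutellariae Radix over Pinelliae Tuber gave 0.43 for CPT1A and -0.37 for CPT2, without overlap, and -0.13 for HADHA, where 1 Pinelliae Tuber library of 125 CPM lay below the Scutellariae Radix values. How many of all tested genes had groups without overlap was not counted, here or in the comparisons above. The ginger calls of FABP1, CPT1A and ACADVL and the HADHA call were each lost when certain single libraries were left out, as given above. Groups of 2 or 3 libraries are too small to test for single outlying values.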

How the results depend on the processing

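Of 234 values (6 genes in 39 comparisons) 49 were called, and no called value changed sign under any alternative. Across the library-wise and setting-wise alternatives together, 17 calls held under every one, and 14 of these belong to the high dose of Zingiberis Rhizoma. Calls kept, of 49, were 49 without the 3 libraries that stood apart, 48 with DESeq2, 48 with its size factors in edgeR, 30 in a fit of only the libraries compared and 25 without the low-count filter. With 1 library left out, 309 of 415 repeats kept the call. Of 2517 alternative values of genes not called, 38 were called, in the same direction, and 157 that missed the threshold both times had the other sign and were given no direction. Numbers of called genes over the 3 doses against vehicle were, for Sayeok-tang (2), 0 without the filter, 6 without the libraries that stood apart, 1 with only the libraries compared and 5 with DESeq2; for Bojungikgi-tang (0), 1 without the libraries that stood apart; for Zingiberis Rhizoma Recens (7), 1 without the filter and 1 with only the libraries compared; for Zingiberis Rhizoma (8), 5 without the filter; for Pinelliae Tuber (3), 0 without the filter, 5 without the libraries that stood apart and 1 with only the libraries compared; and for Scutellariae Radix (4), 2 without the filter and 7 without the libraries that stood apart. With 1 library left out these counts ran from 0 to 3, 0 to 1, 0 to 6, 5 to 8, 0 to 4 and 2 to 5 for the 6 extracts in that order. Without the libraries that stood apart the share of all tested genes called changed too. At the high dose against vehicle it went from 13.1% to 21% for Zingiberis Rhizoma and from 23.6% to 31% for Scutellariae Radix. High against low dose, it went from 4.34% to 10.8% and from 22.5% to 20.5%. Between the gingers at the high dose it went from 2.26% to 6.1%. For the other comparisons that share is not given. High against low dose gave 1 call in place of 0 for Sayeok-tang, both without the libraries that stood apart and with only the libraries compared, and for Scutellariae Radix (3) 1 without the filter and 0 with only the libraries compared. Between extracts, the gingers (4) ran from 1 to 4 with 1 library left out, and Scutellariae Radix against Pinelliae Tuber (3) reached 5 without the libraries that stood apart. Against the other extracts, Bojungikgi-tang gave 1 in place of 0 without the libraries that stood apart, Scutellariae Radix (4) 1 without the filter, and Pinelliae Tuber (3) 1 to 3 with 1 library left out. The causes were not tested.

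Over all tested genes, same-numbered libraries did not deviate together: in 0 of 26 comparisons with 3 shared numbers did every pair correlate above 0.1 (range -0.34 to 0.20). This does not exclude pairing in single genes. ACADVL was highest in replicate 1 in both gingers at each dose, with 186 CPM against 149.7 and 149.9 CPM in fresh ginger at the medium dose. In dried ginger at the low dose it had 178 CPM against 151 and 162 CPM. With the replicate number as a block all 49 calls were kept, the counts against vehicle being 2, 0, 7, 8, 3 and 4 as without it, and with a block within the code set all 14 calls it applies to were kept. Of 84 single-library ratios at another pseudocount, 5 moved beyond the counting interval, of FABP1 or ANGPTL4 with few counts. Depth limits FABP1 (4 to 102 counts) and ANGPTL4 (0 to 8 counts) most, and 3 libraries per group limit the small differences.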
